A study of Mus musculus with 32 samples.

Results

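Hox genes are transcription factors that carry a homeodomain, and in mice they lie in 4 clusters named a, b, c and d. The array held 37 probe sets, of 22690 in all, whose annotated symbol was Hoxa, Hoxb, Hoxc or Hoxd and a number. They stood for 31 genes with paralogue numbers from 1 to 13, and all 37 were tested, with no filter on brightness. A further 3 probe sets matched a pair of Hox genes each and are described apart from the members. The study compared Cckbr-deficient mice (here KO mice, which lack the cholecystokinin B receptor) with control mice, after chronic constriction injury of a nerve (CCI) or a sham operation. Medulla and midbrain of each of 16 mice were measured with 1 array each, so the 8 groups were KO CCI, KO sham, control CCI and control sham medulla, and KO CCI, KO sham, control CCI and control sham midbrain, with 4 arrays in each. The design text describes the 4 arrays of a group as 4 animals. The strain, age and sex of the mice and the borders of the dissections are not given in the sources used here.

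Within a cluster the paralogue number follows the order of the genes along the chromosome. In the embryo, genes of low number begin to be expressed further forward in the hindbrain, and those of higher number begin further back, down the spinal cord. The midbrain lies in front of the forward limit of the Hox genes, whereas the medulla derives from the hindbrain and borders on the cervical spinal cord. Retinoic acid activates many Hox genes in the hindbrain, Meis, Pbx and Pknox proteins bind DNA together with Hox proteins, and Polycomb proteins keep Hox genes silent where they are not used.

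To show the DNA in front of genes on either side of the region result below, the 250 bases before the annotated start of 3 genes are given, from RefSeq's table on GRCm38.p6, 5′ to 3′ along the gene's strand. Hoxa5 (chr6:52204588-52204837, minus strand) and Hoxc4 (chr15:103034145-103034394, plus strand) were higher in medulla, and Hoxa7 (chr6:52218574-52218823, minus strand), which lies in the same cluster as Hoxa5, did not pass the test. Capitals mark each CG, the dinucleotide at which mouse DNA is methylated.
Hoxa5: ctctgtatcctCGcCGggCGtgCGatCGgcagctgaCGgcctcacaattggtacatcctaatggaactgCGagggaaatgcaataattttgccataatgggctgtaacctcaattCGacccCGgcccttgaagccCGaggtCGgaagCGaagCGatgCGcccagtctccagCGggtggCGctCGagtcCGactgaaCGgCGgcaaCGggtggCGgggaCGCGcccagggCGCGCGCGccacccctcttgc
Hoxc4: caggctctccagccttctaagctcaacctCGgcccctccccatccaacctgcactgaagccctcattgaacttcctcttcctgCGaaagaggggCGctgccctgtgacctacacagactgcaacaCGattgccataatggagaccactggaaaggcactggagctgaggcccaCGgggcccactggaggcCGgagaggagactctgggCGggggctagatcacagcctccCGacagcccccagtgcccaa
Hoxa7: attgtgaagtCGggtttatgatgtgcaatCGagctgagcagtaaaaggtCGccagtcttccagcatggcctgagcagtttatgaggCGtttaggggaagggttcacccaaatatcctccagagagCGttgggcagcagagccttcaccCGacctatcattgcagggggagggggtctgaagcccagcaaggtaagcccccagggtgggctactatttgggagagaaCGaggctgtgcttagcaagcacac
The Hoxa5 sequence held 28 CG, that of Hoxc4 held 8 and that of Hoxa7 held 7. The table held such a sequence for 18 of the 31 member genes, 20 sequences in all. The median number of CG was 16 over the 6 sequences of genes that were higher in medulla and 11.5 over the other 14, against 6 over all 32851 sequences of the table. AGGTCA, the repeat unit of the site that retinoic acid receptors bind, occurred on either strand in 4 of the 20 Hox sequences (Hoxb4, Hoxc4, Hoxd10 and Hoxd8) and in 14% of all sequences. TGATNNAT, a form of the joint site of Hox and Pbx proteins, occurred in 3 of the 20 (Hoxa2, Hoxb1 and Hoxd11) and in 7.68% of all.

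Values are intensities on the linear scale of the deposited table, some of them below 0. Array medians lay between 91.0 and 99.9, arrays of a group correlated at 0.962 to 0.989 across probe sets, and 0 pairs of arrays were identical. Cckbr itself read from 5.92 to 24.1 on the 8 KO medulla arrays, against 137 to 200.2 on the 8 control medulla arrays, and from -1.49 to 12.9 on the 8 KO midbrain arrays, against 122 to 177 on the 8 control midbrain arrays. The dissections were checked with marker lists. Of 14 measured medulla markers other than Hox genes 9 were higher in medulla and 0 lower, among them Calcb, Prph and Mab21l2 (log2 differences 1.84, 1.71 and 1.30). Of 18 measured midbrain markers 11 were lower in medulla and 1 higher, and the dopamine transporter gene Slc6a3 read 4.78 ± 8.001 in medulla and 578 ± 74.3 in midbrain (SD, n = 16 each). Of all 12393 genes 12.2% were higher and 12.2% lower in medulla.

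The comparison of medulla with midbrain asked where along the series of paralogues the 2 regions differ. Genes with paralogue numbers up to 6, apart from Hoxb1, were higher in medulla. None of higher number passed the main test, which did not pair arrays by animal. With the animal as a block Hoxd11 also passed (limma, adjusted p = 0.0350 as a fixed term and 0.0234 as a random one). Of the 37 members 15 were higher in medulla and 0 lower (limma, adjusted p under 0.05), whereas 11% of all 22626 probe sets tested were higher and 10.5% lower. The 15 stood for 13 genes and all lay among the 19 probe sets of paralogues 1 to 6. They included all 12 measured genes of paralogues 2 to 6 and, of paralogue 1, Hoxd1 but not Hoxb1. For 11 members every medulla array read above every midbrain array, which held for 0.747% of all probe sets. Of the 10 probe sets with the largest positive difference on the array, 6 were members (Hoxb5, Hoxa5, Hoxb6, Hoxc4, Hoxb2 and Hoxa3), and the probe sets in places 3 to 5 were of Ttr, the choroid plexus gene for transthyretin.

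**Figure D1:**
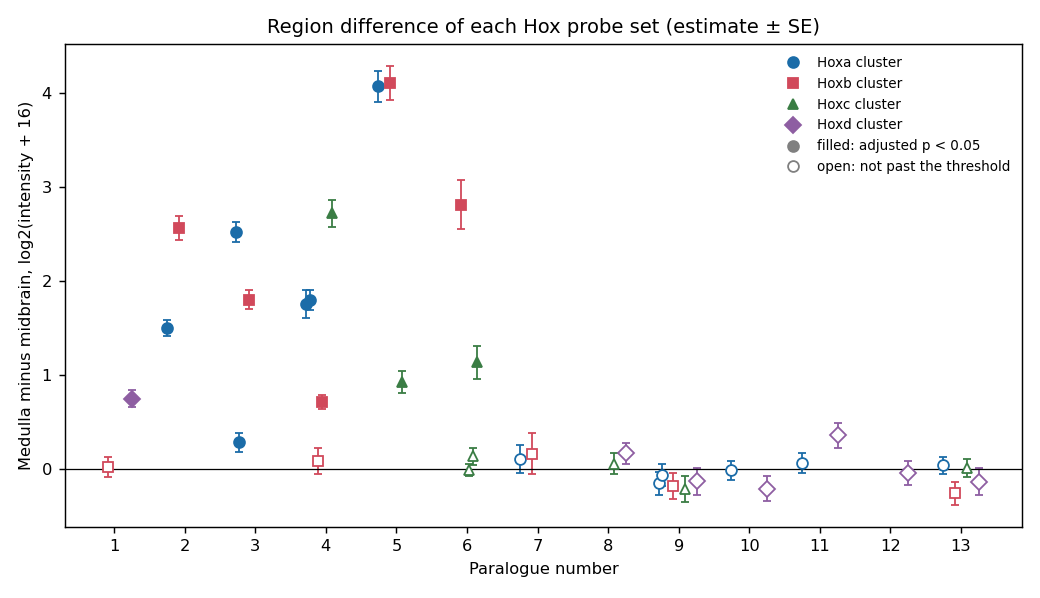
Log2 difference, medulla minus midbrain, on the scale of log2(intensity + 16), of each of the 37 Hox probe sets (vertical axis, estimate ± SE) by paralogue number (horizontal axis), with a colour and shape for each cluster and filled symbols for an adjusted p under 0.05. In this fit, which did not pair arrays by animal, filled symbols lie at paralogues 1 to 6 and reach 4.11 for Hoxb5. Every symbol at paralogues 7 to 13 is open and between -0.25 and 0.36.

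The genes of paralogues 1 to 3 pattern the rhombomeres, the segments of the embryonic hindbrain. Hoxb2 ranged from 135 to 251 on the 16 medulla arrays (median 191), against 1.64 to 38.1 on the 16 midbrain arrays (median 20.3). Hoxa3, on the brighter of its probe sets, ranged from 81.3 to 170 in medulla (median 131), against -0.53 to 20.03 in midbrain (median 11.5). Hoxb3 ranged from 70.1 to 140 in medulla (median 99.4), against 4.09 to 32.5 in midbrain (median 18.5). In all of these the regions did not overlap. The log2 difference was 2.57 for Hoxb2 (SE 0.13, adjusted p = 7.23e-15), 2.52 for Hoxa3 (SE 0.11, adjusted p = 2.00e-16) and 1.80 for Hoxb3 (SE 0.10, adjusted p = 7.92e-14). Hoxa2, the Hox gene whose expression reaches furthest forward in the embryonic hindbrain, rose by 1.51 (SE 0.09), also with no overlap. Hoxd1 had a smaller difference of 0.75 (SE 0.09, adjusted p = 4.36e-07), was higher in medulla in 15 of 16 animals, and its arrays overlapped between the regions. Hoxb1, which marks rhombomere 4 in the embryo, read from -3.55 to 13.7 in medulla and from -4.06 to 14.2 in midbrain, with a difference of 0.02 (SE 0.11, adjusted p = 0.915).

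The largest differences were those of paralogue 5. Hoxb5 ranged from 153 to 535 on the medulla arrays (median 372), against -21.7 to 15.5 on the midbrain arrays (median 0.634). Hoxa5, which takes part in forming the respiratory system and its motor neurons, ranged from 261 to 900 in medulla (median 665), against 3.22 to 30.2 in midbrain (median 21.1). Hoxc4 ranged from 119 to 298 in medulla (median 234), against -4.66 to 34.0 in midbrain (median 19.5). Every medulla array of these genes read above every midbrain array, and the midbrain values lay near or below 0 for Hoxb5. The differences were 4.11 for Hoxb5 (SE 0.18, adjusted p = 3.07e-16), 4.07 for Hoxa5 (SE 0.17, adjusted p = 1.09e-16) and 2.72 for Hoxc4 (SE 0.14, adjusted p = 1.51e-14). Folds are left out here: midbrain levels were near background, and the added 16 sets the size of such a difference. Hoxa4 was higher on both of its probe sets (1.80 and 1.76) and without overlap, and Hoxc5 was higher by 0.92 (SE 0.12) in 16 of 16 animals, with an overlap of its ranges. The 2 probe sets that match both Hoxd4 and Hoxd3 were higher by 1.71 and 1.94 with no overlap, so cluster d also held a signal at paralogues 3 or 4, whose gene these probe sets do not tell.

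**Figure D2:**
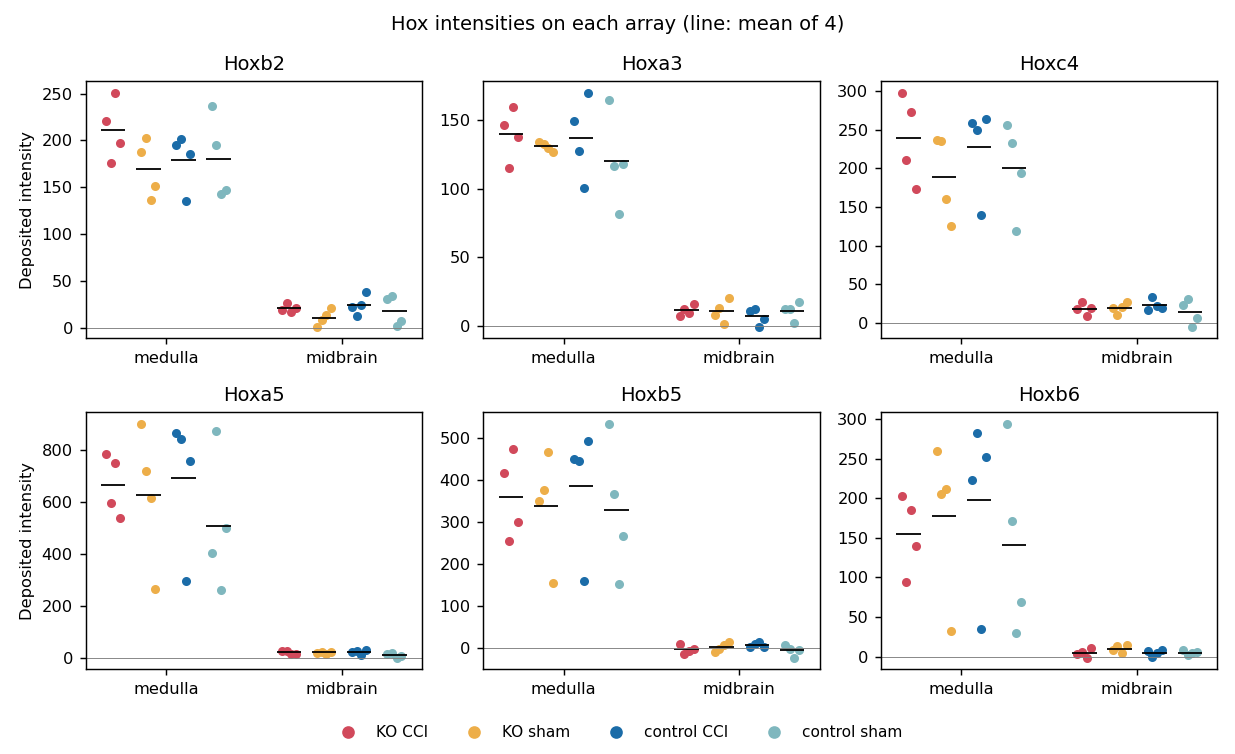
Deposited intensity (vertical axis) on each of the 32 arrays for 6 Hox genes, 1 panel a gene, with medulla left of midbrain and a colour for each combination of genotype and operation. Points are arrays and lines are means of 4 arrays. In each panel all 16 medulla arrays lie above all 16 midbrain arrays, and Hoxb6, Hoxb5 and Hoxa5 spread widely among medulla arrays.

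Paralogue 6 was the highest number that passed in the fit without pairing by animal. Hoxb6 ranged from 29.3 to 294 on the medulla arrays (median 194), against -1.20 to 14.2 on the midbrain arrays (median 5.47). It was higher in medulla by 2.81 (SE 0.26, adjusted p = 2.60e-09), with no overlap. Hoxc6, which specifies motor neurons of the forelimb level of the spinal cord, ranged on its most different probe set from 14.7 to 131 in medulla (median 47.1), against 4.21 to 20.9 in midbrain (median 10.9). Its ranges overlapped, and it was higher by 1.14 (SE 0.17, adjusted p = 1.37e-05) in 15 of 16 animals. The calls reached different paralogue numbers in the 4 clusters. Cluster a had 6 of its 12 probe sets called, up to paralogue 5, cluster b 5 of 10 and cluster c 3 of 8, both up to paralogue 6, and cluster d 1 of 7, Hoxd1. In cluster c, paralogue 6 rested on the dimmest of the Hoxc6 probe sets, and the brighter ones did not pass. Hoxa6 was not among the members, cluster d holds no gene of paralogue 6 in mice, and its paralogues 3 and 4 were measured only by the shared probe sets.

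Probe sets of the same gene disagreed in 3 cases. The second Hoxa3 probe set had a difference of 0.29 (SE 0.10, adjusted p = 0.0380), against 2.52 for the first. Hoxb4 was higher by 0.72 (SE 0.08) on 1 probe set and had a difference of 0.09 (adjusted p = 0.709) on the other. Of the 3 Hoxc6 probe sets, the others had differences of 0.14 and -0.01, with adjusted p = 0.342 and 0.954. Omitting 1 array at a time ended the call of the second Hoxa3 probe set in 14 of 32 cases (adjusted p from 0.0505 to 0.0708): medulla arrays KO CCI 3 and 4, KO sham 2, control CCI 3 and control sham 1, 2 and 4, and midbrain arrays KO CCI 1, KO sham 2 and 4, control CCI 2 and control sham 1, 2 and 3.

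The genes of paralogues 7 to 13 set identities along the trunk spinal cord and in the limbs, from the thoracic level (Hoxc9) to the lumbar level (Hoxa10 and Hoxd10) and the tail end (the genes of paralogue 13). None of their 18 probe sets, for 17 genes, passed (limma), with differences from -0.25 to 0.36, and 2 had an unadjusted p under 0.05, Hoxd11 and Hoxb13, against 31.6% of all probe sets. The exact sign-flip test over the 16 animals (both tails), which allows no p below 3.05e-05, also gave these 2 a p under 0.05, 0.0224 and 0.0428. Hoxd11, the largest of them, read 14.3, 22.9, 39.7 and 72.9 in KO CCI, 24.6, 53.3, 40.1 and 42.7 in KO sham, 19.7, 29.0, 26.8 and 21.0 in control CCI and 48.9, 41.4, 46.0 and 30.7 in control sham medulla. In midbrain it read 14.1, 26.6, 13.4 and 33.1 in KO CCI, 27.4, 28.3, 15.1 and 17.1 in KO sham, 13.4, 23.7, 34.7 and 43 in control CCI and 28.2, 38, 10.8 and 15.1 in control sham mice. The regions overlapped in every animal group, and 12 of 16 animals read higher in medulla (difference 0.36, SE 0.14, adjusted p = 0.0575). With the animal as a block this adjusted p became 0.0350 as a fixed term and 0.0234 as a random one. Of these 18 probe sets 15 were among the dimmest 30% of the array, and so were 5 of the 15 members higher in medulla.

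Hoxa7 and Hoxb7, next in line after paralogue 6, had ranges that overlapped between the regions. Hoxa7 ranged from 22.4 to 128 in medulla (median 45.8) and from 19.9 to 75.6 in midbrain (median 45.8). Hoxb7 ranged from 12.0 to 96.5 in medulla (median 48.0) and from 7.62 to 89.9 in midbrain (median 38.2), with a difference of 0.16 (SE 0.22). A probe set that matches both Hoxb8 and Hoxb7 behaved otherwise. Its deposited values were below 0 on 16 of 16 medulla arrays, with a mean of -77.4 ± 54.6, against -9.10 ± 6.14 on the midbrain arrays (SD, n = 16 each). It was lower in medulla in 14 of 16 animals, by a mean of -68.3 intensity units (exact sign-flip permutation test over 16 animals, both tails, p = 2.14e-04), a test chosen after its values were seen. An intensity below 0 cannot be an amount of RNA. The authors' background correction is not given, so what such a value stands for is not known here. The floor at 0 used for the other tests removes this difference. 

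Most of the members higher in medulla also passed within each group of animals. Within KO CCI mice 13 of the 37 members were higher (2.69% of all probe sets were), within KO sham mice 13 (3.75%), within control CCI mice 14 (2.08%) and within control sham mice 12 (1.62%). The Hoxa5 difference was 4.16, 3.95, 4.02 and 4.15 in these 4 groups, that of Hoxb5 4.30, 4.01, 3.97 and 4.16, and that of Hoxb6 3.01, 2.64, 3.03 and 2.58. Neither genotype nor CCI altered the difference between regions past the threshold for any member. For genotype 0 members passed (0% of all probe sets did) and 2, or 5.41%, had an unadjusted p under 0.05, Hoxa13 (-0.38) and Hoxb9 (-0.59), against 3.8% of all probe sets. For CCI 0 members passed (0% of all) and 0 had an unadjusted p under 0.05, against 2.16% of all probe sets. When only a group's own arrays were fitted, fewer members differed between the regions in the sham mice. The count was then 9 within KO sham mice, against 13 above, and 10 within control sham mice, against 12.

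The labels also give each array a code whose meaning is not stated. Replicates 3 and 4 of each group had the higher code, and replicates 1 and 2 a lower one, except for control sham 1, which had a code of its own and was joined to the lower code. Fitted to the lower code alone, 14 members were higher in medulla and 0 lower. Fitted to the higher code alone, 14 were higher and 1, Hoxd10, was lower (-0.39, adjusted p = 0.00977). In that fit Hoxc6 had a difference of 0.82 (adjusted p = 0.135). In medulla, 0 members differed between the codes, against 0.672% of all probe sets, and 9 had an unadjusted p under 0.05, as had 15.4% of all probe sets. The largest differences among them, higher minus lower code, were those of Hoxb6 (-1.05, adjusted p = 0.246) and Hoxa5 (-0.64, adjusted p = 0.223), and the smallest p was that of Hoxc4 (-0.46, adjusted p = 0.158). In midbrain 0 members differed (0.544% of all probe sets did), and 5 had an unadjusted p under 0.05, as had 15.3% of all.

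Several members varied widely between mice of a group. The SD within medulla groups on the log2 scale was 1.08 for Hoxb6, more than for 99.9% of all probe sets. It was 0.71 for Hoxc6 (99.5% of probe sets), 0.64 for Hoxb5 (99.2%) and 0.63 for Hoxa5 (99.1%). By comparison it was 0.34 for Hoxd1 (85.5%) and 0.25 for Hoxb2 (66.7%). For the Hoxb4 probe set that was higher in medulla it was 0.23 (59.2%), and for Hoxa2 0.19 (45.1%). The other 2 Hoxc6 probe sets had SDs of 0.13 and 0.29. Members that did not differ between the regions past the threshold also spread widely, with SDs of 0.67 for Hoxb7, 0.53 for Hoxc9 and 0.49 for Hoxa7. For Hoxc9 the SD was 0.92 in KO sham, where 1 array read -0.3, and 0.25 to 0.35 in the other medulla groups. For Hoxa7 it was 0.81 in KO sham and 0.28 to 0.36 in the others. Within midbrain groups the SD was 0.63 for Hoxb7, 0.24 for Hoxc9 and 0.39 for Hoxa7, against 0.28 for Hoxb6 and 0.21 for the widely spread Hoxc6 probe set. Wide spread in medulla was therefore not limited to paralogues 4 to 6, nor shared by all of their probe sets. That of Hoxb7 was not limited to medulla. No test was made of these SDs.

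Hoxb6 read 202, 94.1, 185 and 140.0 in KO CCI medulla, 260, 205, 212 and 32.2 in KO sham medulla, 223, 282, 34.7 and 252 in control CCI medulla and 294, 172, 29.3 and 68.8 in control sham medulla. The arrays KO sham 4, control CCI 3 and control sham 3 were the lowest, the highest and lowest arrays stood 10.04-fold apart, and all 3 low arrays carried the higher array code. Hoxb5 read 417, 255, 473 and 300.2 in KO CCI medulla, 351, 377, 468 and 156 in KO sham medulla, 450.0, 446, 160 and 493 in control CCI medulla and 535, 367, 153 and 267 in control sham medulla. Hoxa5 read 782, 595, 750 and 539 in KO CCI medulla, 900, 717, 614 and 266 in KO sham medulla, 863, 839, 298 and 757 in control CCI medulla and 404, 872, 261 and 499 in control sham medulla. The same 3 arrays were the lowest for both of these genes, and the groups overlapped throughout.

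**Figure D3:**
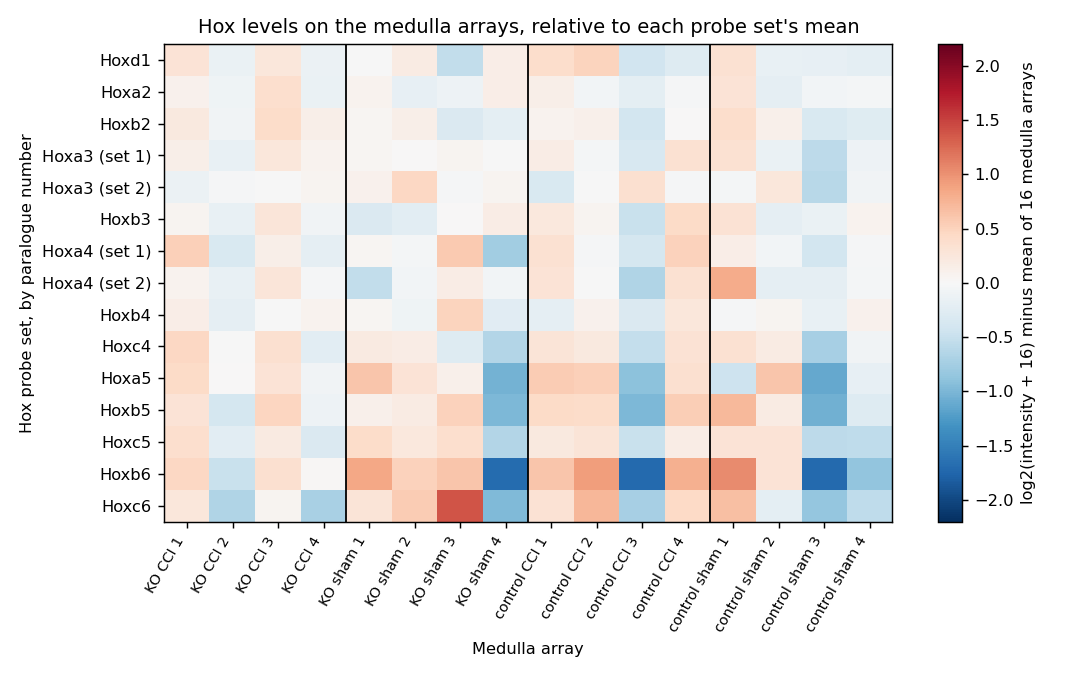
Log2(intensity + 16) of the 15 Hox probe sets higher in medulla (rows, ordered by paralogue number) on the 16 medulla arrays (columns, in their 4 groups), each minus its mean over the 16 arrays, with red above and blue below that mean. The columns KO sham 4, control CCI 3 and control sham 3 are blue in the rows of Hoxc4, Hoxa5, Hoxb5, Hoxc5, Hoxb6 and Hoxc6, and the row of Hoxb6 has the widest range of colour.

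Members were then set against Hoxb6 over the 16 medulla arrays, an axis chosen after its spread was seen, in a family of 22 relations on log2 values with permutation p-values adjusted by Benjamini and Hochberg. Of the other 14 members higher in medulla 9 had a positive Pearson correlation with an adjusted p under 0.05. The share of all probe sets past that threshold was not computed. At another cut, r above 0.8, 28 of 20379 probe sets with 1 symbol passed, 5 of them Hox members. Hoxb5 had Pearson's r of 0.96 (adjusted permutation p = 5.50e-05) and Spearman's rho of 0.84 (adjusted p = 7.33e-04), and r was 0.93 without the 2 arrays furthest from the median of Hoxb6. Hoxc5 had r of 0.93 and rho of 0.78 (adjusted permutation p = 5.50e-05 and 0.00335), with r of 0.92 without those 2 arrays. Hoxc6 had r of 0.84 and rho of 0.91 (adjusted permutation p = 5.50e-05 and 1.10e-04), with r of 0.81 without them. Within the higher and the lower array code, of 8 arrays each, r was 0.98 and 0.86 for Hoxb5, 0.91 and 0.84 for Hoxc5 and 0.80 and 0.91 for Hoxc6. Hoxa5 had r of 0.83 and rho of 0.60 (adjusted permutation p = 0.00115 and 0.0360), and r of 0.69 without the 2 arrays. Its r was 0.96 within the higher code and 0.03 within the lower. Control sham 1, which had a code of its own, was joined to the lower code. It read highest of the lower code for Hoxb6 (294) and lowest for Hoxa5 (404). The r of the lower code without this array was not computed.

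The median r with Hoxb6 was 0.83 over the 8 other probe sets of paralogues 4 to 6 and 0.39 over the 6 of paralogues 1 to 3. The values overlapped between these groups of paralogues. Hoxa3, on its brighter probe set, had r of 0.75 and rho of 0.67 (adjusted permutation p = 0.00188 and 0.0172), with 0.51 without the 2 furthest arrays, and 0.83 and 0.66 within the higher and lower code. Hoxb2 had r of 0.72 and rho of 0.50 (adjusted permutation p = 0.00301 and 0.0767), with 0.55 without those arrays, and 0.60 and 0.65 within the higher and lower code. Of paralogue 4, Hoxb4 had r of 0.59 and rho of 0.48 (adjusted permutation p = 0.0300 and 0.0914), with 0.43 without those arrays, and 0.84 and 0.45 within the higher and lower code. The dimmer Hoxa4 probe set had r of 0.52 and rho of 0.60 (adjusted permutation p = 0.0605 and 0.0360), with 0.31 without those arrays, and 0.82 and 0.35 within the higher and lower code. Hoxa2 had r of 0.25 and rho of 0.31 (adjusted permutation p = 0.406 and 0.283), and 0.06 without the 2 furthest arrays. Among the genes past paralogue 6, Hoxa7 had r of 0.60 and rho of 0.66 (adjusted permutation p = 0.0227 and 0.0196), with 0.57 without the 2 arrays, and 0.67 and 0.48 within the higher and lower code. Hoxb7 ran the other way, with r of -0.56 and rho of -0.56 (adjusted permutation p = 0.0400 and 0.0518), with -0.73 without the 2 arrays, and -0.34 and -0.61 within the higher and lower code. The shared Hoxb8 and Hoxb7 probe set, on its deposited linear values, had r of -0.86 and rho of -0.96 (adjusted permutation p = 5.50e-05 and 1.10e-04), with -0.84 without the 2 arrays, and -0.85 and -0.89 within the higher and lower code. Where Hoxb6 read highest, this probe set was furthest below 0.

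**Figure D4:**
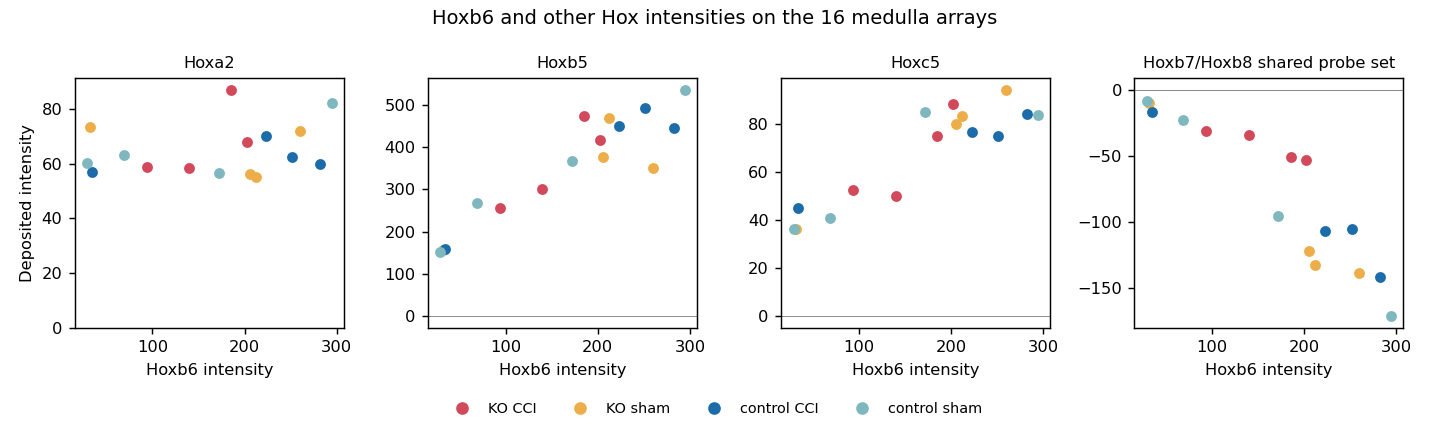
Deposited intensity of Hoxa2, Hoxb5, Hoxc5 and the probe set shared by Hoxb7 and Hoxb8 (vertical axes, 1 panel each) against that of Hoxb6 (horizontal axes) on the 16 medulla arrays, with a colour for each combination of genotype and operation. Hoxb5 and Hoxc5 climb with Hoxb6 (r of 0.96 and 0.93 on log2 values), Hoxa2 stays between 55.2 and 86.8, and the shared probe set falls further below 0.

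Loss of Cckbr and nerve injury were not accompanied by a change of any Hox gene past the threshold. In medulla 0 of 37 members passed for KO minus control over both operations (0.053% of all probe sets did), in CCI mice (0.00442%) or in sham mice (0.0133%), and 0 passed for CCI minus sham in KO mice or in control mice (0% in each) or for the genotype by CCI interaction (0%). By unadjusted p in limma, 1, 0, 3, 2, 1 and 2 members were under 0.05 in these comparisons, and so were 3.36%, 2.44%, 3.81%, 4.24%, 2.8% and 2.67% of all probe sets. In midbrain 0 members passed in the same 6 comparisons (0.0309%, 0.00884%, 0.0133%, 0%, 0% and 0% of all probe sets), and 2, 0, 4, 3, 1 and 2 had an unadjusted p under 0.05, as had 7.49%, 4.96%, 8.47%, 8.23%, 3% and 5.48% of all probe sets. 

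The members with the smallest p in medulla were genes of paralogues 8 to 13, all among the dimmest 30% of probe sets. For KO minus control over both operations they were Hoxd13 (-0.40, unadjusted p = 0.0160) and Hoxa13 (-0.18). In CCI mice they were Hoxc13 (0.32) and Hoxd13 (-0.40), and in sham mice Hoxd9 (-0.61) and Hoxc13 (-0.37). For CCI minus sham they were Hoxd8 (-0.49) and Hoxd9 (0.55) in KO mice and Hoxc13 (-0.65, unadjusted p = 0.00121) and Hoxd11 (-0.51) in control mice. Hoxc13 read 5.94 ± 8.55 in control CCI and 19.6 ± 4.65 in control sham medulla (SD, n = 4 each), both near background. For the interaction they were Hoxc13 (0.70) and Hoxd9 (0.88). The lowest adjusted p of a member in any of these was 0.993.

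In midbrain the smallest p for KO minus control belonged to Hoxb9 (0.49) and Hoxd1 (0.20) over both operations, to Hoxc5 (-0.25) and Hoxc13 (0.33) in CCI mice and to Hoxb13 (0.50, unadjusted p = 0.00444) and Hoxd1 (0.37) in sham mice. Hoxb13 read 27.8 ± 7.42 in KO sham and 15.2 ± 5.99 in control sham midbrain (SD, n = 4 each). For CCI minus sham they were Hoxb13 (-0.43) and Hoxc5 (-0.42) in KO mice and Hoxa5 (0.56) and Hoxb13 (0.27) in control mice, and for the interaction Hoxb13 (-0.70) and Hoxc13 (0.68). The lowest adjusted p of a member was 0.491.

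The medulla genes of the region result showed how small a difference this design could have told apart. Hoxa2 and Hoxb2 spread less within medulla groups than Hoxa5, Hoxb5 and Hoxb6, though not little beside all probe sets (percentiles 45.1 and 66.7). Hoxb2 differed by 0.07 (SE 0.12) between KO and control medulla over both operations. Hoxa5 differed by 0.16 (SE 0.28), Hoxb5 by 0.02 (SE 0.29) and Hoxb6 by 0.16 (SE 0.48). For CCI minus sham, Hoxb6 had a difference of 0.02 (SE 0.68) in KO mice and of 0.45 (SE 0.68) in control mice. With such errors the comparison does not show that Hoxb6 levels were alike.

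**Figure D5:**
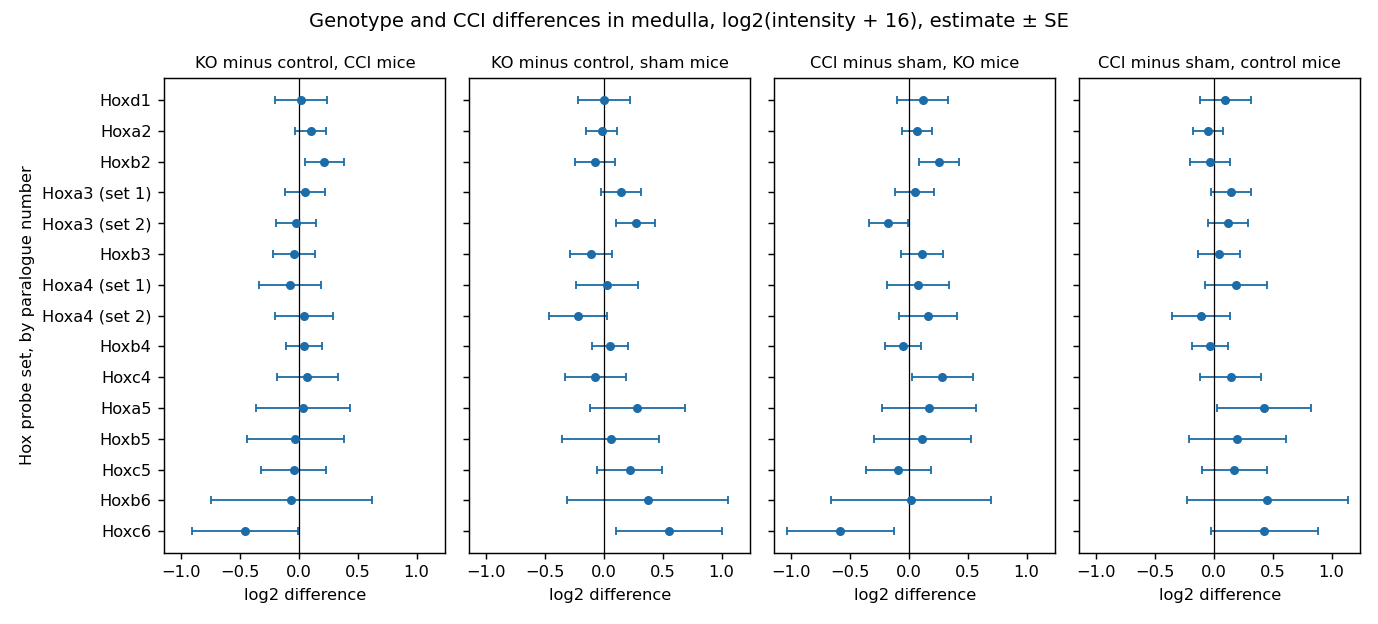
Log2 differences in medulla (horizontal axes, estimate ± SE on the scale of log2(intensity + 16)) of the 15 Hox probe sets higher in medulla (rows, ordered by paralogue number), for KO minus control in CCI and in sham mice and for CCI minus sham in KO and in control mice (panels, left to right). No estimate passed the threshold, and the error bars of Hoxb6 (SE 0.68) are the widest.

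Genes that act with or upstream of Hox genes were compared between the regions as well. The share of all genes was 12.2% higher and 12.2% lower in medulla. Of 8 measured Hox cofactor genes 3 were higher in medulla and 0 lower, with a list median of 0.13, against -0.01 over all genes. Meis1 read 252 ± 22.1 in medulla and 116 ± 15.97 in midbrain (log2 difference 1.02, SE 0.06), Meis2 was higher by 0.54 and Pknox1 by 0.46, and no Pbx gene measured passed. Of 15 measured retinoid genes 3 were higher (Crabp1 0.60, Stra6 0.39 and Aldh1a1 0.16) and 5 lower, led by the retinoic acid-making enzyme Aldh1a2 (-0.64), Crabp2 (-0.62) and Dhrs3 (-0.39). Aldh1a2 was also on the list of meningeal and fibroblast genes below and is counted among the lower genes there. Of 15 measured patterning factors of the hindbrain and tail end 1 was higher (Zic1, 0.38) and 2 lower (Irx3, -0.29 and Irx5, -0.24), and the Hox activators Cdx1, Cdx2, Cdx4 and Egr2 did not pass. In medulla and midbrain Cdx4 read 5.18 and 4.06 and Egr2 7.31 and 8.94 on average, near background, and Cdx1 read 21.9 and 20.5. Such low levels limit what could be detected for these genes. Of 19 measured Polycomb and trithorax genes 0 were higher and 2 lower, Cbx7 (-0.25) and Rnf2 (-0.22).

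The genes beside the clusters were set against the Hox genes, with neighbours taken from the RefSeq annotation of GRCm38.p6. Of the 5 nearest measured genes on each side of each cluster, 40 in all, 7 were higher in medulla and 5 lower, with differences from -0.23 to 0.62 and a median of 0.03. Of all genes 12.2% were higher and 12.2% lower. Skap2, next to the low-numbered end of cluster a, had the largest, with 184 ± 26.6 in medulla and 113 ± 12.7 in midbrain (SD, n = 16 each, log2 difference 0.62, SE 0.06). Evx1 and Evx2, the homeobox genes next to the high-numbered ends of clusters a and d, did not pass (0.11 and 0.02). Deposited values of Evx1 averaged below 0, with -33.7 ± 23.3 in medulla and -39.2 ± 15.9 in midbrain (SD, n = 16 each). The floor at 0 therefore limits what its test could show. Mtx2, at the other end of cluster d, was higher by 0.28.

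Markers of neighbouring tissue and of motor neurons also differed between the regions, where 12.2% of all genes were higher and 12.2% lower in medulla. Of 10 measured choroid plexus markers 9 were higher in medulla and 1 lower, and their summed intensity ranged from 1076 to 11627 on medulla arrays and from 420.3 to 5487 on midbrain arrays. Of 10 measured cerebellar markers 4 were higher and 1 lower, with sums from 2707 to 10491 and from 2414 to 4361. Of 12 measured meningeal and fibroblast genes 1 was higher and 3 lower, and of 10 measured motor neuron genes 5 were higher and 1 lower. The lists overlap, so these counts are not separate from those above. The motor neuron genes Calcb, Prph, Slc5a7 and Isl1 were also medulla markers. Otx2, the lower choroid plexus marker, was also a midbrain marker, and Zic1 was both a cerebellar marker and a patterning factor. Hoxb6 correlated with Ttr at r of 0.10 and rho of 0.07 over the 16 medulla arrays (adjusted permutation p = 0.802 and 0.830), and with the cerebellar granule cell gene Gabra6 at r of 0.18 and rho of 0.22 (adjusted p = 0.571 and 0.461). Without the 2 arrays furthest from the median of Hoxb6 these r were 0.29 and 0.28, and within the higher and lower array code they were 0.09 and 0.10 for Ttr and 0.25 and 0.50 for Gabra6. Other genes did move with it: the red blood cell genes Alas2 and Hbb-b2 both had r of -0.82 with Hoxb6, given as a description chosen after these values were seen, and their part in the spread of Hoxb6 was not tested. Without KO CCI 1 and control sham 4, whose medulla read lowest for Ttr, 16 members were higher. The part of cerebellar tissue and of cell-type mix in the Hox differences was not tested, and in bulk tissue fewer cells of a type and less RNA per cell cannot be told apart.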

How the data were processed

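RNA from medulla and midbrain of 16 mice was labelled from 4 ug per sample and hybridised to 32 short-oligonucleotide arrays, per the labels' protocols. The deposited table holds 1 intensity per probe set and array on a linear scale. The authors' background correction, scaling and software are not given in the sources used here; values below 0 and nearly equal array medians are properties of the table. All value columns were assigned to samples by their accession (0 columns were left over).

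Values under 0 were set to 0, 16 was added, log2 was taken and arrays were quantile-normalized. A total of 64 control probe sets were left out and 22626 tested with limma 3.58.1 in R 4.3.3 (lmFit, eBayes, both tails), after the code had been tested on simulated data. Region comparisons used all 32 arrays and 8 group means, and the others the 16 arrays of a region. P-values were adjusted by Benjamini and Hochberg over all probe sets of a comparison, with 0.05 as the threshold. Differences on the log2(intensity + 16) scale understate changes of dim genes. Correlations had 100000 permutations. Precision is limited by the 4 arrays of each group.

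Probe sets took their symbols from GEO's platform annotation. List genes were read on their brightest probe set. Per-array values were given for the 1 to 3 members of largest region difference per paralogue group, and at most 3 genes per direction of each other list, except where a named count called for the others. The members, the gene lists and the tests were chosen with earlier results of these data known.

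Medulla and midbrain arrays of an animal were paired by consecutive array numbers, since the design states that both regions came from each animal. Their residuals correlated at 0.171 on average (-0.05 to 0.363), and at 0.143 when paired by title number. The titles of KO sham 3 and 4 pair the regions in another way than the array numbers do. Alternatives were other normalizations, pseudocounts of 1 and 64, a filter on the dimmest 30%, trended robust variance, array code, replicate blocks, fits to fewer groups and the omission of each array.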

Additional observations from a re-analysis of the deposited data

Results flagged for a closer look

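Of 72 groups of 4 arrays, from the 9 members given per array or by range, 2 held an array far from the other 3 by Dixon's ratio (95% critical value), and chance flags about 5% of such groups, which is more than were found. Both were control CCI medulla 3. Hoxb5 read 159.9 on it, against 445.6 to 492.7 on the other control CCI medulla arrays (ratio 0.858). Hoxc4 read 139.6 on it, against 249.4 to 263.4 on the others (ratio 0.887). It was also the lowest of its group for Hoxa5 and Hoxb6. Leaving it out changed no call of these 4 genes between the regions.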

How the results depend on the processing

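The count of 15 members higher in medulla was 14 to 16 over the 32 omissions of 1 array and 10 to 16 over 14 other settings. The lowest came with the dimmest 30% of probe sets left out, which kept 15 members under test. That filter went by the mean over all 32 arrays. Members such as Hoxb6 (mean 168 in medulla and 6.10 in midbrain) therefore stayed in through their medulla level. The count under this filter is thus partly set by the region difference and is no separate support for it. With the title number as a replicate block the count was 15. With the animal as a replicate block it was 16 as a fixed and 16 as a random term. Beside Hoxd11 the blocks changed no call of a member in the comparison over all animals. Within animal groups the omissions gave 13 to 13 members in KO CCI mice, 11 to 13 in KO sham mice, 12 to 14 in control CCI mice and 11 to 13 in control sham mice. With the higher array code alone, which leaves 2 arrays a group, the count was 8 in each of KO CCI, KO sham, control CCI and control sham mice. All genotype, CCI and interaction counts were 0 under every setting run. The second Hoxa3 probe set missed the threshold with median centring (adjusted p = 0.0510), a pseudocount of 1 (0.0517), either array code alone (0.104 lower, 0.525 higher) and without KO sham midbrain 2 and 4 together (0.0898). Hoxd11 passed in 9 omissions of 1 array (adjusted p from 0.0206 to 0.0476: medulla arrays KO CCI 1 and 2, KO sham 1 and control sham 4, and midbrain arrays KO CCI 4, KO sham 2, control CCI 4 and control sham 1 and 2), with median centring (0.0479), the higher code alone (0.0232) and without the low-Ttr animals (0.0472, an alternative chosen after seeing the data). Hoxb13 passed without KO sham medulla 3 (-0.33, adjusted p = 0.0268). The causes were not tested. No called difference changed sign. The dimness of most probe sets of paralogues 7 to 13 limits what could be detected there.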

Other observations

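Other genes followed Hoxb6 over the 16 medulla arrays, and they are given as values, chosen after they were seen, with no p. Of 20379 probe sets with 1 symbol 28 had Pearson's r above 0.8 with Hoxb6, of which 5 were Hox members, and 15 had r below -0.8. After Hoxb5 the highest was Serpinb1b, a serine protease inhibitor gene (r of 0.95), which was also higher in medulla than in midbrain by 2.18 on the log2 scale. Among the next were the neuropeptide genes Cck (0.91), Npy (0.90) and Tac2 (0.87), the serotonin receptor gene Htr5b (0.90) and the neuronal calcium sensor gene Hpca (0.91). Tac2 ranged from 29.6 to 366 on the medulla arrays and Htr5b from 8.96 to 103. Cck and Hpca were lower in medulla than in midbrain, by -0.80 and -0.82, so they ran with Hoxb6 among mice and against it between the regions. Among the most inverse were the interferon-induced genes Rsad2 (-0.92) and Isg20 (-0.87) and the red blood cell genes Alas2 (-0.82) and Hbb-b2 (-0.82). Alas2 ranged from 92.2 to 1148 and Hbb-b2 from 18.7 to 687 on the medulla arrays. The part of these genes in the spread of the Hox genes was not tested.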
